A study of Schmidtea mediterranea with 89 samples.

Results

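Of the 89 libraries of a planarian stem cell culture study, 12 came from cells kept on a layer of mammalian feeder fibroblasts, and the comparison of the 2 feeders is described here. The 12 libraries were taken by their labels: 6 from cells on HFF1, a human foreskin fibroblast line (3 after 1 day and 3 after 3 days), and 6 from cells on MEF, which are mouse embryonic fibroblasts (3 after 1 day and 3 after 3 days). Their experiment also held 6 libraries from flat plates without a feeder (3 at 1 day, 3 at 3 days) and 3 from cells lysed without culture, 21 in all. Every group was labelled wild type, cell type planarian SiRNeoblast, from Schmidtea mediterranea. All cultures shared a KnockOut DMEM medium with heat-inactivated fetal bovine serum, non-essential amino acids, vitamins, pyruvate and antibiotics. The labels do not say how the feeder cells were prepared, or whether feeder cells were taken off before lysis, so RNA of the feeder may be in the libraries. Nor do they say whether replicate libraries stem from different cultures, so p-values measure only the spread between libraries, which may be technical.

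Neoblasts are the dividing adult stem cells of planarians and the source of all new cells in regeneration. Outside the animal they lose viability, and feeder layers are used in stem cell culture because fibroblasts supply matrix, contact and secreted factors. Human and mouse fibroblasts are both common feeders for mammalian stem cells, and the comparison sets neoblasts on one against neoblasts on the other.

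The table lists 36035 transcript identifiers and does not pair them with gene names, so no function can be given to any of them. For the same reason, the neoblast label and a carry-over of fibroblasts could not be checked against marker genes.

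The total count of a library ran from 20178937 to 22466600 with HFF1 at 1 day, from 12509543 to 21592750 with HFF1 at 3 days and from 16518405 to 18070258 with MEF at 1 day. With MEF at 3 days, libraries 1 and 2 held 7480255 and 6775383 counts and library 3 held 19777036. After all libraries were thinned to 6775383 counts, the shallow MEF libraries had 28934 and 30994 identifiers above 0 and MEF library 3 of the same day 23365, while the HFF1 libraries of 3 days had 27610 to 28948. Results that rest on the shallow pair are given with and without them. Counts from 1 to 20 were even in 66.9% to 80.8% of cases in the 21 libraries, a property of the deposited counts for which no source used here gives a reason.

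Over both days, edgeR's quasi-likelihood test separated HFF1 from MEF in 2 of 26107 identifiers tested (0.00766% called at a Benjamini-Hochberg adjusted p under 0.05). One, SMED30003527, was higher with HFF1, and one, SMED30006789, was lower. Before adjustment 2334 identifiers had a p under 0.05, 1317 higher and 1017 lower with HFF1. DESeq2 on the same identifiers called 412, 191 higher and 221 lower, among them both of the edgeR calls.

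SMED30003527 was an HFF1 identifier at both days. With HFF1 at 1 day its counts were 1052, 1088 and 1171, and at 3 days 3374, 3009 and 3189. The MEF libraries held 10, 10 and 6 counts at 1 day and 4, 6 and 21 at 3 days. The feeders were thus far apart on each day: after scaling with TMM (trimmed mean of M values) to CPM (counts relative to the depth of the library), the lowest HFF1 library at 1 day held 41.2 CPM and the highest MEF library 0.664, and at 3 days the values were 174 and 1.48. The mean level was 54.6 ± 11.8 CPM (SD, n = 3) with HFF1 and 0.566 ± 0.135 with MEF at 1 day, and 205 ± 30.1 and 0.898 ± 0.508 at 3 days. The fitted log2 fold change over both days was 7.19 (SE 0.70, 95% interval 5.75 to 8.63), which is 146-fold, with an adjusted p of 2.01e-06 in edgeR. At 1 day it was 6.58 (SE 0.97, edgeR adjusted p = 0.00662) and at 3 days 7.80 (SE 1.02, edgeR adjusted p = 0.000755). The difference between the days was 1.23 on the log2 scale (SE 1.12) and did not pass (edgeR adjusted p = 0.788). The call over both days held in 12 of 12 fits that left out 1 feeder library, with edgeR adjusted p-values from 2.67e-05 to 0.000378, and without the shallow MEF pair (6.84, edgeR adjusted p = 0.0169). The call at 1 day was kept in 4 of 12 such fits, with edgeR adjusted p-values from 0.00666 to 0.265. The filter and scaling were redone in each fit, with 27196 to 28766 identifiers tested. That call was also lost without HFF1 library 1, 2 or 3 of 3 days, none of which is in the contrast. Its loss therefore cannot be put down to the library left out alone.

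The same identifier was present on flat plates, so it is not an identifier seen only with a feeder. In the feeder experiment it had 0 counts in all 3 uncultured libraries, which allows a level of 0.0596 to 0.0894 CPM by library (3 counts). On flat plates it had 126, 123 and 27 counts at 1 day and 12, 62 and 11 at 3 days. Flat plates therefore lay between the feeders at 1 day and overlapped with MEF at 3 days. Against flat plates HFF1 differed by 3.62 on the log2 scale at 1 day (SE 0.83, edgeR adjusted p = 0.272) and by 7.35 at 3 days (SE 0.99, edgeR adjusted p = 0.00142), the single call among 26107 in that comparison (0.00383%), which ended without flat library 1 or 3 of 3 days. MEF differed from the same flat libraries by -2.96 at 1 day (SE 0.83, edgeR adjusted p = 0.202) and by -0.45 at 3 days (SE 0.79, edgeR adjusted p = 0.791). In the experiments without feeders it reached 14.2 CPM of the total count in experiment 1 (cells in aggregates or not), 1.29 in experiment 2 (AggreWell and flat plates) and 18.0 in experiment 3 (U-bottom plates, soft gels and flat plates). The highest values of experiment 3 were on flat plates at 3 days, with 11.7, 18.0 and 1.89 CPM. Uncultured cells held 1.13, 1.35 and 1.88 CPM there, unlike those of the feeder experiment, and the MEF values were numerically at or below such levels. Experiment 3 was deposited as estimated counts and the feeder experiment as whole counts, so levels may not be comparable between them. SMED30027845, for one, had a median of 132000 CPM in experiment 3 and group means of 11100 to 25400 TMM-scaled CPM in the feeder experiment. In experiment 5 (planarian extract) SMED30003527 was above 0 in 3 of 30 libraries, with at most 2 counts. Whether human RNA adds to its count with HFF1 was not tested, and a rise in RNA per cell and a change in the kinds of cell present cannot be told apart in these bulk libraries.

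**Figure D1:**
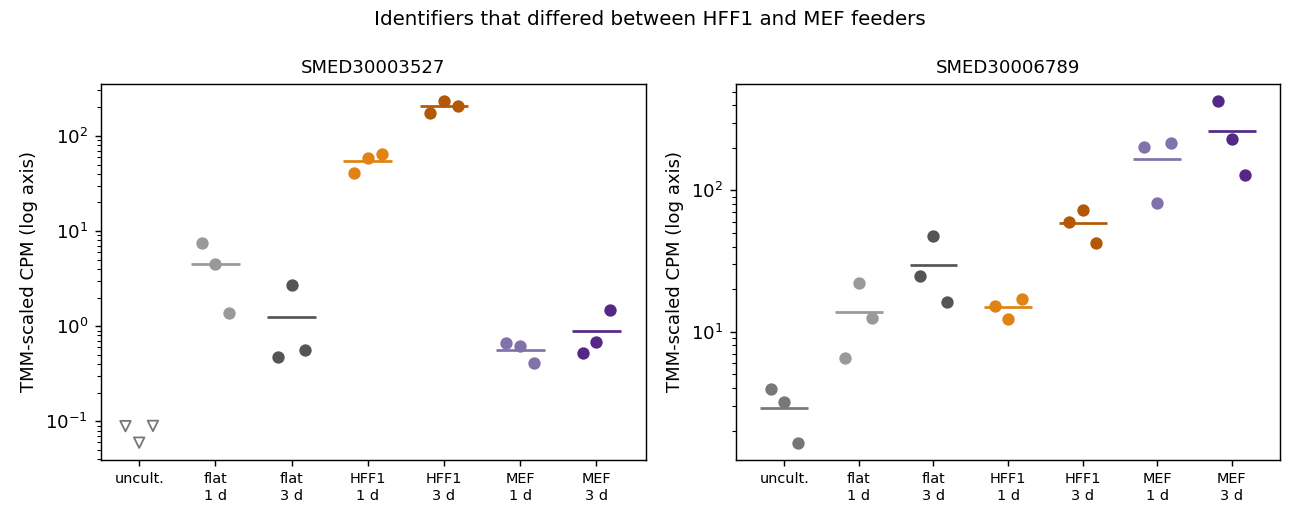
TMM-scaled CPM of SMED30003527 and SMED30006789 (log axes) in the 21 libraries, by group: points are libraries, lines are group means (n = 3), and open triangles mark libraries with 0 counts at the level that 3 counts would give. SMED30003527 was at 41.2 or more in every HFF1 library and at 1.48 or less in every MEF library; SMED30006789 was at 81.9 or more in every MEF library and at 73.0 or less in every HFF1 library.

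SMED30006789 was higher with MEF. The MEF libraries held 3046, 1319 and 3147 counts at 1 day and 3268, 2001 and 1822 at 3 days. The HFF1 libraries held 390, 229 and 314 counts at 1 day and 1161, 939 and 653 at 3 days. The feeders did not overlap on either day, but the gap was narrow at 3 days, where the lowest MEF library held 128 CPM and the highest HFF1 library 73.0. Over both days the log2 fold change of HFF1 against MEF was -2.83 (SE 0.46, 95% interval -3.78 to -1.88, edgeR adjusted p = 0.0157). By day it was -3.48 at 1 day (SE 0.68, edgeR adjusted p = 0.14) and -2.17 at 3 days (SE 0.64, edgeR adjusted p = 0.798), and neither passed in edgeR. The DESeq2 adjusted p was 2.56e-06 over both days, 0.000288 at 1 day and 0.053 at 3 days.

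Levels of SMED30006789 on HFF1 overlapped with those on flat plates. The flat libraries had 110, 605 and 248 counts at 1 day and 626, 1086 and 318 at 3 days, and the uncultured ones 132, 159 and 55. HFF1 differed from flat plates by 0.12 on the log2 scale at 1 day (SE 0.61) and by 0.99 at 3 days (SE 0.62). MEF differed from the same flat libraries by 3.60 (SE 0.68) and 3.16 (SE 0.67), each with an edgeR adjusted p of 0.163. The call over both days is less firm than that of SMED30003527. Leaving out 1 feeder library in turn ended it in 9 of 12 fits, with edgeR adjusted p-values from 0.0223 to 0.297. The filter was redone in each of these fits. With all 21 libraries and no low-count filter (35166 identifiers tested) edgeR called no identifier lower with HFF1 either. The losses are therefore not tied to single libraries alone. Without the shallow MEF libraries 1 and 2 of 3 days the log2 fold change of SMED30006789 was -2.32.

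The level of SMED30006789 moved together with that of SMED30014438, an identifier chosen after its values were seen. SMED30014438 had 39044, 29804 and 21909 counts with MEF at 1 day and 53626, 15023 and 51419 at 3 days. With HFF1 it had 17440, 22224 and 24390 counts at 1 day and 26715, 17739 and 15393 at 3 days. MEF libraries were above HFF1 libraries on each day without overlap, at 1510 CPM or more against 1330 or less at 1 day and 1730 or more against 1380 or less at 3 days. The log2 fold change over both days was -1.31 (SE 0.35) and did not pass (edgeR adjusted p = 0.29). It was lowest before culture, with 65.8 to 219 CPM, and 221 to 1190 CPM on flat plates. In the 68 libraries of the other 4 experiments it was nearly absent, at no more than 0.27 CPM, while every library of the feeder experiment, uncultured ones included, held it.

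Of 6373 identifiers with at least 10 CPM on average in the 21 libraries, 9 followed SMED30014438 with a Pearson r of at least 0.9 on the log2 scale (0.902 to 0.983), and SMED30006789 was one of them (r = 0.908, a description over 21 libraries that share 7 groups). After the group means were taken away, the r of SMED30006789 with it was 0.663. For SMED30003527 the r was 0.34, and 0.106 after the group means were taken away. Together the 10 identifiers held 13600, 3770 and 7230 CPM with MEF at 3 days, 5510, 4060 and 3090 with MEF at 1 day, 2780, 3270 and 2150 with HFF1 at 3 days, and 1890, 2530 and 2550 with HFF1 at 1 day. The uncultured libraries held 138 to 410 CPM and the flat ones 567 to 2630. All 9 had a lower fitted level with HFF1 than with MEF, by -2.83 to -0.35 on the log2 scale, a direction in which their choice by likeness has a part, and the call of SMED30006789 was the only one among them. The most abundant of the 9, SMED30026505, differed by -1.26 (edgeR adjusted p = 0.293). It averaged 929 CPM over the 21 libraries, against 78.5 for SMED30006789. In the other experiments 4 of the 10 had a median under 1 CPM, while others, SMED30006789 with a median of 6.08 CPM among them, were present there too.

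**Figure D2:**
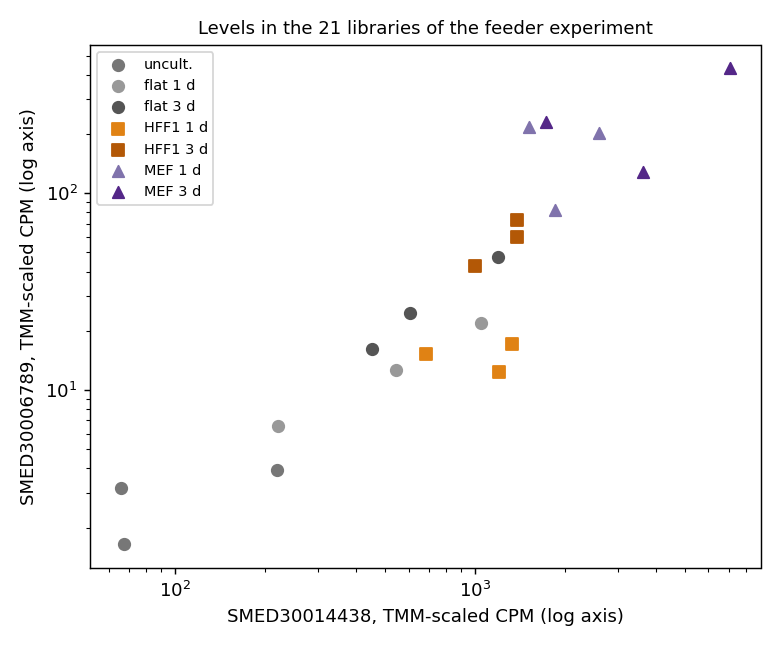
SMED30006789 against SMED30014438, TMM-scaled CPM on log axes, with 1 point for each of the 21 libraries (circles for uncultured and flat, squares for HFF1, triangles for MEF). The points run from the uncultured libraries at the lower left, where SMED30014438 was at 65.8 to 219 CPM, to MEF at 3 days at the upper right, with HFF1 and flat libraries between.

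Apart from these 2 identifiers, edgeR called no difference between the feeders over both days. The biological coefficient of variation fitted over all identifiers was 0.984, and 56.9% of the tested identifiers had 0 counts in at least 1 feeder library. Precision rose with level. The median SE of the log2 fold change over both days was 1.08 below 1 CPM, 0.97 from 1 to 10 CPM, 0.66 from 10 to 100 CPM and 0.35 above 100 CPM. The 95% interval lay wholly within 1 log2 unit of no difference for 611 of the 916 identifiers above 100 CPM (66.7%), but for 834 of all 26107 (3.19%). A difference of that size was thus bounded for most of the abundant identifiers and for few of the others.

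Identifiers whose HFF1 and MEF libraries did not overlap on both days, in the same direction, numbered 75 (0.287% of those tested), 35 higher (0.134%) and 40 lower (0.153%) with HFF1. Among the 6102 identifiers with at least 10 CPM over the feeder libraries there were 24 (0.393%), 14 higher (0.229%) and 10 lower (0.164%). On single days, where the condition is easier to meet, separation was more frequent. Full separation of 3 against 3 libraries reaches no smaller exact two-sided permutation p than 0.1. HFF1 was higher without overlap in 1374 identifiers (5.26%) and lower in 754 (2.89%) at 1 day. At 3 days it was higher in 837 (3.21%) and lower in 1224 (4.69%). At 10 CPM or more, 265 identifiers (4.34%) were higher and 268 (4.39%) lower at 1 day, against 386 (6.33%) higher and 201 (3.29%) lower at 3 days. Separation in opposite directions on the 2 days was at least as frequent, with 101 identifiers (0.387%) in all and 33 (0.541%) at 10 CPM or more. An example of a wide separation that did not pass was SMED30019102, chosen after its values were seen. It had 34, 905 and 48 counts with HFF1 at 1 day and 291, 187 and 798 at 3 days, against 2, 2 and 0 with MEF at 1 day and 3, 4 and 2 at 3 days. The feeders did not overlap, but libraries within HFF1 differed widely, and so did those of flat plates, with 0, 14 and 311 counts at 1 day. Its log2 fold change over both days was 6.97 (SE 1.38, edgeR adjusted p = 0.136).

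**Figure D3:**
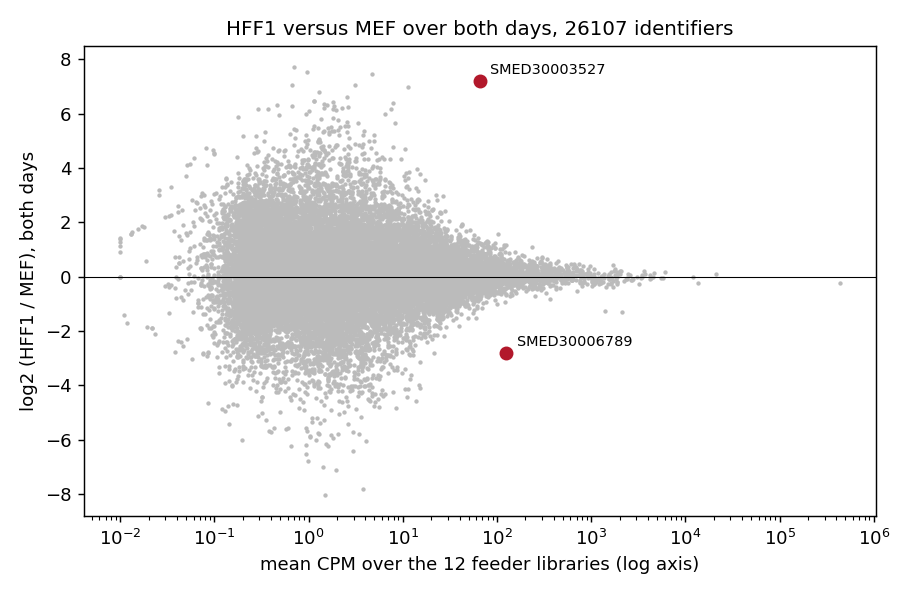
Fitted log2 fold change of HFF1 against MEF over both days (vertical axis) against the mean CPM of the 12 feeder libraries (log axis), 1 point for each of 26107 identifiers. The 2 labelled identifiers are those called by edgeR, SMED30003527 at 7.19 and SMED30006789 at -2.83, and the spread of the others narrows as the level rises.

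At 1 day edgeR called 1 of 26107 identifiers (0.00383%), SMED30003527, and 3100 had a p under 0.05 before adjustment. DESeq2 called 1011, 584 higher and 427 lower with HFF1, of which 735 (72.7%) had 0 counts in at least 1 feeder library and 38 had 10 CPM or more. For 545 of these 1011 (53.9%), a single library held over 50% of the summed CPM of the 12. SMED30023199, chosen after its values were seen, is an example from the 38 with 10 CPM or more and does not stand for the others. It had 409, 584 and 1517 counts with MEF at 1 day and 17, 0 and 4 with HFF1, and the feeders did not overlap. At 3 days it had 6, 13 and 51 counts with MEF and 30, 19 and 18 with HFF1, and they did. Its log2 fold change at 1 day was -7.51 (SE 1.45, edgeR adjusted p = 0.14; DESeq2 adjusted p = 6.47e-12). On flat plates it had 11, 16 and 2 counts at 1 day and 458, 55 and 409 at 3 days, so the levels of single identifiers also moved widely between days without a feeder.

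At 3 days edgeR again called SMED30003527 alone (0.00383%), while 1397 identifiers had a p under 0.05 before adjustment. DESeq2 called 139, 73 higher and 66 lower with HFF1. Unlike the DESeq2 calls at 1 day, most of these 139 were not of low level, as 77 had 10 CPM or more. In 49 of them (35.3%) at least 1 feeder library was without counts. For 23 (16.5%) a single library held most of the summed CPM of the feeder libraries. The feeders did not overlap at 3 days in 105 of the 139. The edgeR result at 3 days turned on the MEF libraries. Without MEF library 3, which leaves the 2 shallow ones, edgeR called 32 identifiers, all higher with HFF1. For 23 of these 32, MEF library 3 was at or above the lowest HFF1 library. Without MEF library 1 no identifier was called, and SMED30003527 had an edgeR adjusted p of 0.0855. Without the shallow pair it was not called either, with a log2 fold change of 7.11 and 1 MEF library left at that day, assumed to vary like the other groups (edgeR adjusted p = 0.752).

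The differences measured at 1 day and at 3 days had a correlation near 0 across identifiers. The contrasts of the 2 days share no library, and the median SE of a log2 fold change was 1.42 at 1 day and 1.35 at 3 days, above the median size of the differences, 0.93 and 0.74. Over 26107 identifiers, which are not independent replicates, their log2 fold changes had a Pearson r of -0.0245 and a Spearman rho of -0.0399, and 46.0% had the same sign. Among the 6102 with 10 CPM or more, r was 0.033, rho was -0.0302, and 47.2% had the same sign. Of these, 265 differed by at least 1 log2 unit in the same direction on both days, and 220 did so in opposite directions. A change of the feeder difference between the days was called for no identifier in edgeR (smallest adjusted p 0.218), where 2585 had a p under 0.05 before adjustment, and for 466 in DESeq2. SMED30015706, among the largest changes between days with no overlap, had 225, 1094 and 787 counts with MEF and 260, 145 and 125 with HFF1 at 1 day. At 3 days it had 2, 5 and 16 counts with MEF and 34, 594 and 120 with HFF1. In CPM its feeders did not overlap on either day, in opposite directions, and the change between the days was 7.24 on the log2 scale (SE 1.60, edgeR adjusted p = 0.218).

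**Figure D4:**
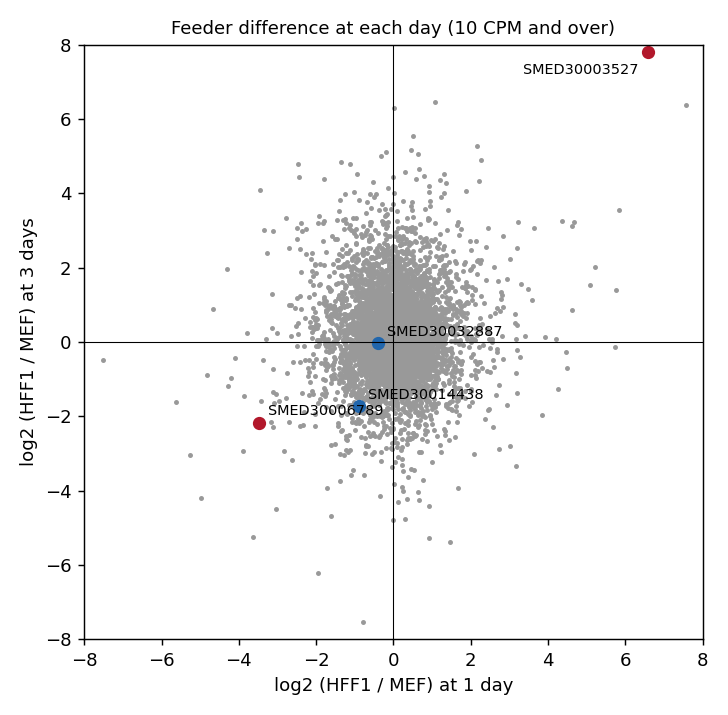
Log2 fold change of HFF1 against MEF at 1 day (horizontal) and at 3 days (vertical) for the 6102 identifiers with at least 10 CPM over the feeder libraries. The called identifiers (red) differed in the same direction on both days, SMED30003527 at 6.58 and 7.80 and SMED30006789 at -3.48 and -2.17. Identifiers that were not called lie near them, such as SMED30019102 at 7.57 and 6.36 and SMED30027120 at -3.11 and -2.28. The cloud has no slope (r = 0.033).

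Whole-library likeness gave the same picture. Over 6373 identifiers, the Spearman correlation between an HFF1 and a MEF library had a median of 0.699 at 1 day (range 0.681 to 0.733), against 0.705 between HFF1 libraries and 0.711 between MEF libraries of that day. At 3 days the median was 0.595 between the feeders, 0.617 within HFF1 and 0.564 within MEF. Libraries of different feeders on the same day were thus about as alike as libraries of 1 feeder. Within MEF at 3 days the value was 0.622 between the shallow libraries 1 and 2. Library 3 was at 0.564 and 0.549 with them. With the HFF1 libraries of 3 days, MEF library 3 was at 0.607 to 0.633 and the shallow pair at 0.558 to 0.597. The medians with MEF at 3 days therefore rest largely on the shallow pair. Likeness to uncultured cells was lower at 3 days than at 1 day for both feeders, with medians of 0.606 and 0.401 for HFF1 and 0.623 and 0.274 for MEF, and the MEF values at 3 days ran from 0.240 to 0.507. Flat libraries at 3 days had a median of 0.582.

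With both feeders the share of 1 identifier grew with time. SMED30032887 held 24.4%, 27.4% and 24.8% of the counts with HFF1 at 1 day and 56.7%, 51.8% and 52.6% at 3 days. With MEF it held 28.4%, 32.9% and 33.3% at 1 day and 54.9%, 46.9% and 56.8% at 3 days. Its share was higher in every library of 3 days than in every library of 1 day for each feeder, and flat plates moved the same way, from 26.8% ± 2.04 to 44.8% ± 4.54 (SD, n = 3). From 1 day to 3 days, contrasts added after the data were seen, the log2 fold change was 1.04 with HFF1 (SE 0.17, edgeR adjusted p = 0.0194) and 0.66 with MEF (SE 0.16, edgeR adjusted p = 0.0412). Neither call was stable: each was kept in 1 of 12 fits that left out 1 feeder library, with filter and scaling redone. The log2 fold change ran from 0.44 to 1.02 for HFF1 (edgeR adjusted p 0.00031 to 0.378) and from -0.43 to 0.88 for MEF (edgeR adjusted p 0.0243 to 0.85). It also fell where no library of the contrast was left out. For MEF it was 0.18 to 0.19 without any 1 HFF1 library, and for HFF1 0.64 without any 1 MEF library of 1 day. These fits thus do not tie the loss of the calls to single libraries. The sign for MEF turned without MEF library 3 of 3 days. At 1 day MEF was above HFF1 without overlap in share, 31.5% ± 2.72 against 25.5% ± 1.60 (exact permutation test, two-sided, p = 0.1, the smallest that 3 against 3 libraries can give), but the scaled levels overlapped (log2 fold change of HFF1 against MEF -0.41, SE 0.16, edgeR adjusted p = 0.297). At 3 days the shares were 53.7% ± 2.61 with HFF1 and 52.9% ± 5.27 with MEF and overlapped (exact p = 0.9).

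Between 1 and 3 days edgeR called 4 identifiers with HFF1 (0.0153%), 1 higher (0.00383%) and 3 lower (0.0115%) at 3 days, 410 with MEF (1.57%), 185 higher (0.709%) and 225 lower (0.862%), and none on flat plates (2130 with a p under 0.05 before adjustment, and 394 by DESeq2). The test of the difference itself, the change of the feeder difference between days, called none, and the MEF count rested on few libraries. The balance of directions for MEF also moved with the method, with 1375 higher and 201 lower under RLE (relative log expression) size factors, 8018 and 845 by DESeq2, and 73 and 208 with a replicate block. The median log2 fold change of all identifiers from 1 to 3 days with MEF was 1.44 in edgeR with TMM and 2.18 with RLE. Without MEF libraries 1 and 2 of 3 days this median was 0.02 with TMM. The number of identifiers called between days with MEF was 0 without library 1 of 3 days alone and 1 without library 2 alone. Without library 3 it was 2490. It was 68, 69 and 0 without MEF library 1, 2 or 3 of 1 day. The HFF1 count was 0 or 1 without any 1 of the HFF1 libraries and 0 without any 1 of the MEF libraries of 1 day, but 116 without the shallow MEF pair and 15, 28 and 367 without MEF library 1, 2 or 3 of 3 days.

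Measures of whole libraries did not separate the feeders after adjustment. Over both days, with libraries permuted within days (400 arrangements, smallest possible p 0.005), 27533 identifiers were detected on average with HFF1 and 25152 with MEF (exact stratified permutation test, two-sided, p = 0.07, adjusted over 6 measures p = 0.285). At equal depth the means were 24695 and 23275 (exact p = 0.425, adjusted p = 0.47). HFF1 libraries were deeper, with a mean total of 18991000 against 14327000 (exact p = 0.095, adjusted p = 0.285). The 4 most abundant identifiers held 44.0% with HFF1 and 46.5% with MEF (exact p = 0.295, adjusted p = 0.443). At 1 day these shares were 30.6% ± 2.03 and 36.8% ± 2.41 without overlap (exact p = 0.1, the smallest possible), and at 3 days 57.4% ± 2.43 and 56.2% ± 5.40 (exact p = 0.8).

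**Figure D5:**
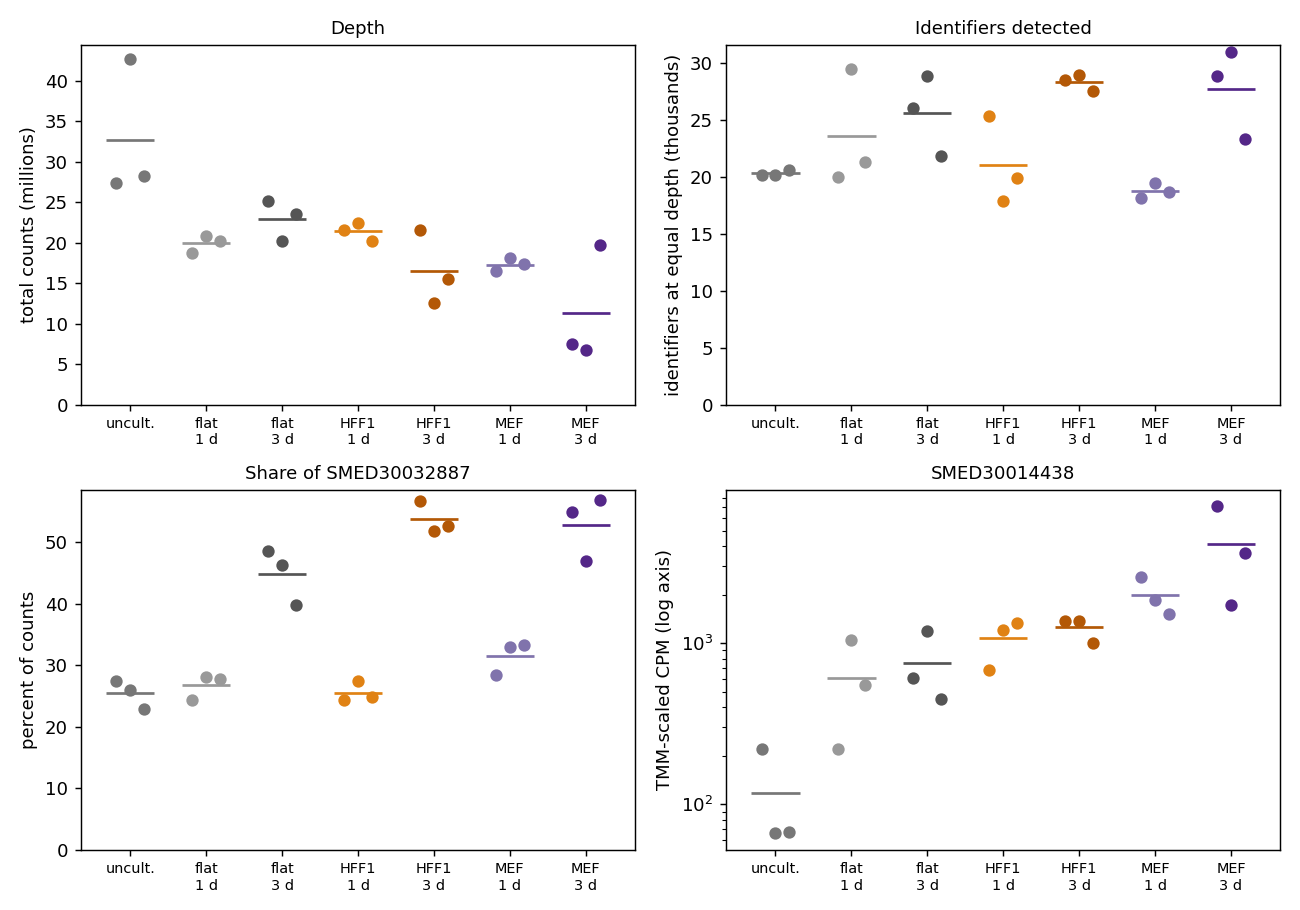
Total counts, identifiers above 0 after thinning to 6775383 counts, the share of counts in SMED30032887, and the TMM-scaled level of SMED30014438 (log axis) in the 21 libraries; points are libraries and lines are group means (n = 3). MEF libraries 1 and 2 at 3 days are the shallowest and SMED30032887 takes 46.9% or more of the counts in every feeder library of 3 days.

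Identifiers seen with 1 feeder only were looked for because RNA of a human or mouse cell might be counted under a planarian identifier. With at least 5 counts in at least 4 of the 6 libraries of 1 feeder and 0 in all 6 of the other, there was 1 for HFF1 and none for MEF. The HFF1 one, SMED30027116, had 14, 0 and 0 counts at 1 day and 6, 8 and 5 at 3 days, and it was not absent elsewhere, with up to 6 counts on flat plates and up to 2 in uncultured cells. With a looser rule of at least 1 count in at least 3 libraries there were 211 for HFF1 and 54 for MEF. Of these, 205 and 52 were also present in flat or uncultured libraries. The remaining 6 for HFF1 had at most 8 counts in any library and the remaining 2 for MEF at most 6. With at least 10 counts in all 6 libraries there was none for either.

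The same question was asked of the libraries as a whole. The 1182 identifiers with 0 counts in all 9 flat and uncultured libraries of the experiment held 0.000325% to 0.00428% of the counts of a feeder library, on average 0.00114% with HFF1 and 0.0020% with MEF (exact stratified permutation test, two-sided, p = 0.285, adjusted p = 0.443). The 1820 identifiers at 0 in the 24 flat and uncultured libraries of experiments 3 and 5 held 0.0168% with HFF1 and 0.0230% with MEF (exact p = 0.47, adjusted p = 0.47), and 0.00102% to 0.0313% in the flat and uncultured libraries of the feeder experiment, which had no feeder. The highest values were in the shallow MEF libraries, and without them the sign of both differences turned. In a set added after the data were seen, the 3880 identifiers under 0.5 CPM in all 68 libraries of the other experiments, the shares were 0.155% with HFF1 and 0.347% with MEF (exact p = 0.005, the smallest possible, not adjusted). Most of it was SMED30014438, and without that identifier the shares were 0.0438% and 0.0597% (exact p = 0.47). Reads of a feeder that fall on identifiers also expressed by planarian cells would not show in any of these sets.

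With no gene names, responses known from the other experiments served as reference lists, and edgeR called none of their members in a comparison of the feeders. DESeq2 called 0.342% to 2.36% of a list over both days, beside 1.58% of all identifiers, 1.32% to 5.39% at 1 day, beside 3.87%, and 0 to 1.08% at 3 days, beside 0.532%. Lists were made of the 297 identifiers that fell and the 292 that rose after 3 days of flat culture in both experiments 3 and 5. In these experiments 23.3% and 1.46% of identifiers were called lower and 18.5% and 2.23% higher. The median log2 fold change of HFF1 against MEF over both days was 0.08 and -0.02 for these lists, beside 0.06 for all identifiers tested. At 1 and 3 days the list that fell was at -0.03 and 0.22 (all identifiers 0.21 and -0.25) and the list that rose at 0.10 and -0.21. Of the list that fell, 28 were higher and 5 lower at 3 days at an unadjusted edgeR p under 0.05 (11.1%, beside 5.35% of all). At 1 day 21 were higher and 15 lower (12.1%, beside 11.9%). These shares depend on level. Of the 6102 identifiers with 10 CPM or more, 584 had such a p at 3 days and 151 at 1 day. The list that fell had a median level of 16.1 CPM over the feeder libraries, against 1.43 for all identifiers. The shares of all identifiers are thus not a background of like level for it. Without the shallow MEF pair the median log2 fold change of that list at 3 days was 0.19, beside 0.78 for all identifiers. The list that fell stood at a mean of 5.90 ± 0.28 log2 CPM (SD, n = 3) before culture, 3.51 ± 0.10 with HFF1 and 3.38 ± 0.17 with MEF at 1 day, and 2.93 ± 0.24 and 2.58 ± 0.20 at 3 days. Flat plates stood at 3.39 ± 0.24 and 3.03 ± 0.15, so each group in culture was well below the uncultured cells whatever the feeder. The list that rose went from 3.98 ± 0.18 before culture to 5.72 ± 0.10 with HFF1, 5.68 ± 0.07 with MEF and 5.84 ± 0.02 on flat plates at 3 days.

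The medians of the lists from AggreWell plates and extract at 3 days turned in sign without the shallow MEF libraries. The 1907 tested identifiers that were higher in AggreWell than in flat plates in experiment 2 (11.8% called there) had a median of 0.25 at 1 day and -0.50 at 3 days, beside 0.21 and -0.25 for all identifiers. Of these 1907, 95 were higher and 48 lower with a p under 0.05 before adjustment at 1 day (7.50% together, beside 11.9% of all identifiers), and 6 and 23 at 3 days (1.52%, beside 5.35%). Without MEF libraries 1 and 2 the median at 3 days was 0.98, beside 0.78 for all identifiers. The list is of low level, with a median of 1.81 CPM over the feeder libraries. The 1669 identifiers lower in AggreWell (9.15% called) had medians of 0.00 and 0.23, and -0.15 at 3 days without that pair. For the 603 identifiers higher with planarian extract in U-bottom plates (2.50% called) the medians were 0.21 and -0.33, and 0.82 at 3 days without the pair, and for the 1477 lower with extract (6.11% called) 0.00 and 0.15, and -0.35 without it.

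The same lists were set beside flat plates at 3 days, with the flat libraries shared by the comparisons of both feeders. The higher list had a median of 0.79 with HFF1 (all identifiers 0.39) and 1.29 with MEF (all identifiers 0.63), and the lower list -0.52 and -0.79. Without MEF libraries 1 and 2 the MEF medians were -0.15 (all identifiers -0.37) and -0.32. At 1 day the higher list was at -0.67 with HFF1 (all identifiers -0.36) and -0.97 with MEF (all identifiers -0.58). No member of any list was called by edgeR against flat plates, while DESeq2 called 73 of the 1907 for MEF at 3 days, all higher (3.83%, beside 1.72% of all identifiers), and 2 for HFF1 (0.105%, beside 0.709%). Against flat plates edgeR called none of 26107 identifiers for HFF1 at 1 day, MEF at 1 day or MEF at 3 days (2597, 3605 and 2263 with a p under 0.05 before adjustment), where DESeq2 called 832, 1166 and 449.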

How the data were processed

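Per the labels, libraries were made by template switching, PCR and Tn5 tagmentation; no molecular identifiers are mentioned, so floors cover counting error only, while the intervals of fold changes come from the fit and include the spread between libraries. The authors deposited whole counts per identifier for experiments 4 (feeders) and 5, and estimated counts, rounded here, for experiments 1 to 3, all without normalization. The submitters' processing notes name kallisto 0.46.2 and R 4.0.5, without a role; no source used here gives the annotation or genome build. Members and lists were chosen with earlier results of these data known.

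The 21 libraries of experiment 4 were fitted together in edgeR 4.0.16 (R 4.3.3), with 1 mean per group, TMM scaling, the default expression filter and the quasi-likelihood test, two-sided, over all 26107 identifiers kept. Standard errors were derived from the fold change and its F statistic. DESeq2 1.42.0 and the alternatives of the closing section were run beside it, and the fit was tested on simulated counts. Lists were made by the same fits of experiments 2, 3 and 5. Identifiers were named where they were called, had at least 10 CPM and did not overlap between feeders (up to 2 in each direction), or, in a contrast without calls, as values only; others are said to be chosen after their values were seen. No 2 libraries of a group held the same counts within sampling noise (chi-square per degree of freedom at least 85.8), so none was taken as 1 library deposited again; this does not say whether replicates are technical.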

Additional observations from a re-analysis of the deposited data

Results flagged for a closer look

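SMED30006789, called lower with HFF1 than with MEF, also had a signal in experiment 1, whose libraries enter no comparison of feeders. In that experiment (cells in aggregates and non-aggregating cells at 2 days, without a feeder) it reached 93400 estimated counts in non-aggregating library 1 and 28297.5 in aggregate library 1. The other 4 libraries of experiment 1 held from 3109.57 to 8424.13 estimated counts. The highest corresponds to 3870 CPM (of the total count) and the lowest to 170, against at most 431 TMM-scaled CPM in a MEF library. In the AggreWell, U-bottom and gel, and extract experiments its highest values were 17.2, 12.2 and 11.9 CPM. Groups of 3 libraries were too small for a test of single libraries that stand apart.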

How the results depend on the processing

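The call of SMED30003527 over both days was kept under each alternative run for it. The count of calls over both days was 1 with the 4 most abundant identifiers left out, with no low-count filter, without the uncultured libraries, and without MEF libraries 1 and 2 of 3 days (an alternative chosen after seeing the data, as are the day contrasts). The last also gave 0 calls at 3 days, and 116, 1 and 1 between days for HFF1, MEF and flat plates. DESeq2 called 412 over both days, 1011 at 1 day, 139 at 3 days and 466 for their change, 832 and 185 for HFF1 and 1166 and 449 for MEF against flat plates at 1 and 3 days, and 1695, 8863 and 394 between days for HFF1, MEF and flat plates. RLE size factors gave 7 calls for MEF against flat plates at 3 days, and 1, 1576 and 1 between days. They put the median of all identifiers at -0.08 over both days, 0.18 at 1 day and -0.52 at 3 days, and leaving out the 4 most abundant identifiers at 0.38, 0.56 and 0.06. With RLE the list that rose in flat culture was at -0.15 over both days, -0.44 at 3 days and -0.39 for the change, and that higher with extract at -0.66 at 3 days and -0.80 for the change.

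Without MEF libraries 1 and 2 of 3 days, with 29360 identifiers tested, the medians over both days were 0.64 for the list higher in AggreWell, 0.46 for higher with extract and 0.11 for rose. At 3 days they were 0.98, 0.82 and 0.33, and -0.15 and -0.35 for lower in AggreWell and lower with extract. For the change they were 0.73, 0.55, 0.18, -0.15 and -0.35. Detected identifiers then differed by 3430.8 (exact stratified permutation p = 0.025), and the shares of silent identifiers turned to 0.000341 (experiment 4) and 0.008438 (experiments 3 and 5) percentage points higher with HFF1. Looser and stricter rules for identifiers seen with 1 feeder gave 211 and 0 for HFF1 and 54 for MEF.

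Leaving out 1 library in turn, with 27196 to 28766 identifiers tested because the filter follows the smallest group, gave 1 to 4 calls over both days, 0 to 1 at 1 day, 0 to 32 at 3 days and 0 to 1 for the change. It gave 0 to 1 for HFF1 and 0 to 534 for MEF against flat plates at 3 days, and 0 to 367, 0 to 2490 and 0 to 1 between days for HFF1, MEF and flat plates. HFF1 minus MEF ranged from 3405400 to 6772900 total counts, 1274.5 to 3182.8 detected identifiers, 320 to 2227.2 at equal depth, -4.05 to -1.58 percentage points in the 4 most abundant identifiers, and -0.001464 to -0.00056 and -0.0135 to 2.26e-05 in the silent sets of experiment 4 and of experiments 3 and 5. Identifiers seen with 1 feeder numbered 0 to 13 for HFF1 and 0 to 1 for MEF. The change between days of SMED30020759 ran from -3.67 (without MEF library 2 of 1 day) to 8.55 around 7.52, and that of SMED30031920 from -7.36 to 0.82 (without MEF library 3 of 3 days) around -6.75. The causes were not tested.

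Same-numbered HFF1 and MEF libraries had correlated deviations of -0.03 to 0.02, so the numbers were not taken as pairs. With a replicate block the calls were 2 over both days, 1 at 1 day, 1 at 3 days and 0 for the change, and 10, 281 and 0 between days for HFF1, MEF and flat plates.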
